A study of Mus musculus with 18 samples.

Results

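Glutathione transferases, aldehyde dehydrogenases and flavin-containing monooxygenases were followed in co-cultures of mouse embryonic stem (ES) cells with PA6 stroma and in PA6 cells cultured alone. A gene was taken when its symbol in the array table opened with GSTA, GSTK, GSTM, GSTO, GSTP, GSTT, GSTZ, MGST, ALDH or FMO followed by a number, and when 3 or more of the 18 arrays detected a probe for it, with a detection p below 0.05. This held for 60 of 86 probes and 40 of 49 genes, out of 16446 genes tested in all. They comprise 17 aldehyde dehydrogenases, 17 soluble glutathione transferases, 3 microsomal glutathione transferases and 3 FMOs. Among the genes not kept, GSTA1 was detected on 1 array and ALDH3B2, ALDH7A1, ALDH9A1, FMO4, GSTA2, GSTM3 and GSTT4 on 0. At the limit, a second probe of FMO1 was kept with 3 arrays and ALDH1B1 with 4, whereas a second probe of GSTT2 with 2 arrays was not.

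Glutathione transferases join the thiol of glutathione to reactive electrophiles, among them products of lipid peroxidation, and the microsomal (MGST) enzymes do so in membranes. Aldehyde dehydrogenases oxidise aldehydes to acids. ALDH1A1, ALDH1A2 and ALDH1A3 make retinoic acid from retinaldehyde, the mitochondrial ALDH2 clears acetaldehyde, and the ALDH1L enzymes act on folate. FMOs oxygenate nitrogen and sulphur atoms of small molecules. Many genes of these families respond to the transcription factor NRF2 through antioxidant response elements, and ALDH activity is widely used to mark progenitor cells, which makes the families of interest in a stroma that supports stem cells.

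The study asked how FGF2 and BMP4 drive endothelial differentiation of ES cells in this co-culture. RNA was collected on day 3 in serum-free medium from ES/PA6 co-cultures and from PA6 mono-cultures. Both received no growth factor (-GFs), 20 ng/ml FGF2 or 10 ng/ml BMP4, which gives 6 groups of 3 replicates. The ES cells carried a τ-EGFP knock-in and had been kept on embryonic fibroblasts with LIF, and PA6 is a stromal cell line. Each biological replicate was a set of single wells, 1 per condition. The main tests did not pair arrays by set, so their p-values measure the spread of arrays within a group. In the co-cultures both cell types were lysed together, so fewer cells of a type and less RNA per cell cannot be told apart.

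Levels are given as normalized log2 intensity, on which a difference of 1 is a doubling, and compare arrays for one gene but not one gene with another. A gene was called at an adjusted p under 0.1 with an absolute log2 fold change over 1, from a limma fit of the 6 groups over all genes. Between 17125 and 20412 probes were detected per array, and arrays of 1 group correlated at 0.981 to 0.992. Of 7 tested ES cell markers 7 were higher in the co-cultures, with a summed linear level of 36400 to 57500 there against 327 to 435 in the mono-cultures. Of 8 stromal markers 6 were lower in the co-cultures without growth factors, where they summed to 50800 to 59900. For 27 of the 40 genes the probe was detected on all 18 arrays.

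With FGF2, 6 glutathione transferases, ALDH1A1, ALDH3A1 and FMO1 fell in the stromal line itself. In PA6 mono-cultures 9 of the 40 genes fell (22.5%), against 2.56% of all genes, and 2 rose (5%), against 2.71% of all genes. The falling genes were ALDH1A1, ALDH3A1, FMO1, GSTA3, GSTA4, GSTM1, GSTM6, GSTO2 and GSTT1, and the rising ones ALDH1L1 and GSTM7. The median log2 fold change of the 40 genes was -0.27, beside -0.01 over all genes. All 11 called genes had FGF2 arrays that did not overlap the -GFs arrays, as did 24 of the 40 genes (60%), against 33.8% of all genes.

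**Figure D1:**
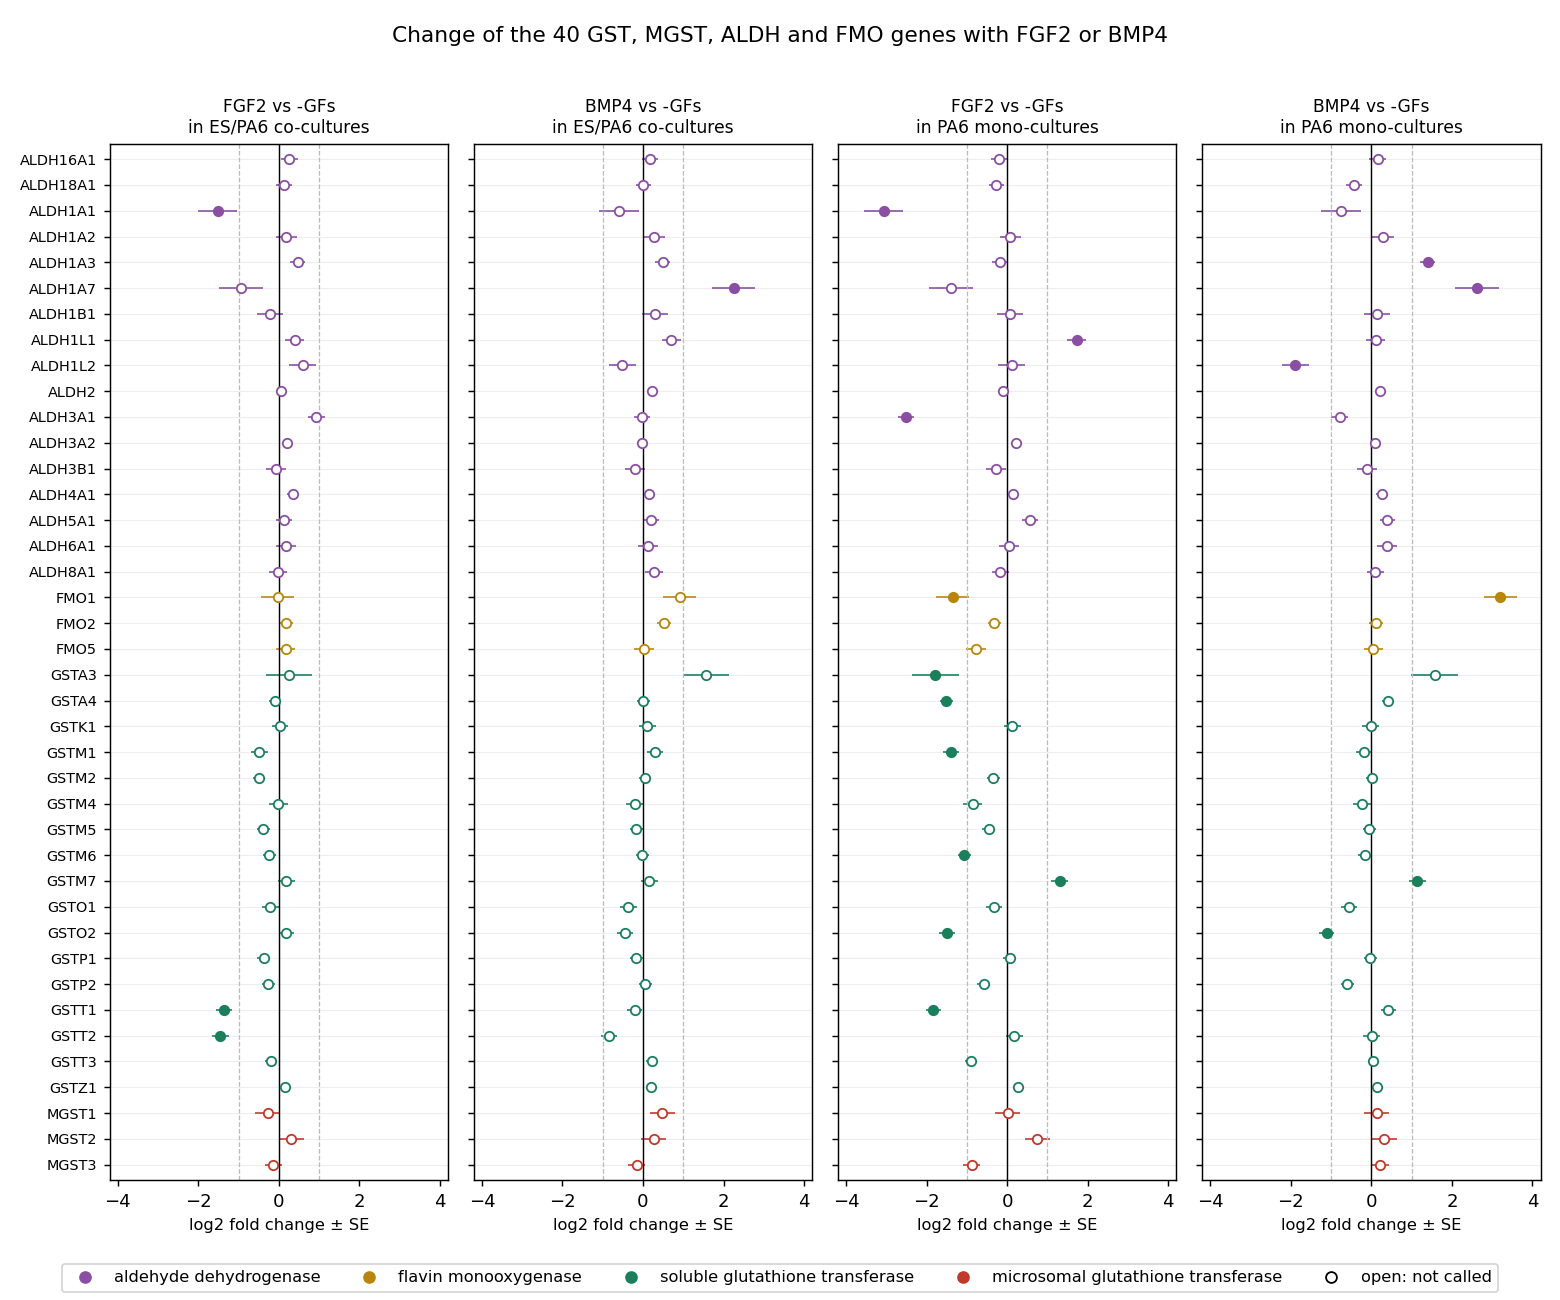
Log2 fold change with its standard error (x axis) of the 40 genes (y axis, by family) with FGF2 or BMP4 against -GFs in each culture type, 3 arrays per group. Filled points passed the adjusted p and fold thresholds, dashed lines mark a log2 fold change of -1 and 1, and the panel of FGF2 in PA6 mono-cultures holds the most filled points, 11 of 40.

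ALDH1A1, a cytosolic retinaldehyde dehydrogenase, lay at 10.62, 10.30 and 10.31 in PA6 mono-cultures without growth factors and at 8.26, 6.24 and 7.51 with FGF2. Every FGF2 array was below every -GFs array, and ALDH1A1 fell by 3.07 on the log2 scale (SE 0.492, adjusted p = 0.000418). ALDH3A1, which oxidises aldehydes of lipid peroxidation, went from 8.46, 8.95 and 8.69 to 6.24, 6.67 and 5.66. The arrays were far apart here too, with 1 FGF2 array under the detection threshold, and ALDH3A1 fell by 2.51 (SE 0.205, adjusted p = 6.11e-07).

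GSTT1, a theta class transferase that acts on small halogenated compounds, lay at 11.68, 11.77 and 11.95 without growth factors and at 9.97, 9.78 and 10.16 with FGF2. It fell by 1.83 on the log2 scale (SE 0.19, adjusted p = 6.24e-06), with little spread among the arrays of either group. GSTA3, an alpha class transferase, was at 11.11, 11.67 and 10.75 without growth factors and at 8.93, 10.50 and 8.76 with FGF2. Its FGF2 replicate 2 was close to the lowest -GFs array, and the fall of 1.78 (SE 0.574, adjusted p = 0.048) was lost when any of 4 single arrays was left out (-GFs replicate 1 or 2, FGF2 replicate 1 or 3), with an adjusted p of up to 0.167. The second kept probe of GSTA3 changed by -0.37 and was not called.

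ALDH1L1, the cytosolic 10-formyltetrahydrofolate dehydrogenase, moved the other way, from 9.56, 9.32 and 8.86 to 10.95, 10.82 and 11.15. Its FGF2 arrays were all above the -GFs arrays, with a rise of 1.73 (SE 0.237, adjusted p = 9.27e-05). The mitochondrial ALDH1L2, its counterpart, changed by 0.11 (SE 0.332, adjusted p = 0.91). GSTM7 was the other riser, by 1.30 (SE 0.21, adjusted p = 0.000443), and was not called without background correction, where the change was 0.76.

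Among the remaining falls, GSTA4, which conjugates the lipid aldehyde 4-hydroxynonenal, fell by 1.51 (SE 0.155, adjusted p = 5.67e-06) and GSTO2, an omega class enzyme with dehydroascorbate reductase activity, by 1.49 (SE 0.195, adjusted p = 6.16e-05). GSTM1 fell by 1.39 (SE 0.201, adjusted p = 0.000161), but a second GSTM1 probe changed by -0.08. FMO1, detected on 1 of the 3 FGF2 arrays, fell by 1.35 (SE 0.415, adjusted p = 0.0384) and GSTM6 by 1.06 (SE 0.165, adjusted p = 0.000318). Both of these calls were lost without background correction (log2 fold changes of -0.71 and -0.81) and without -GFs replicate 1 or FGF2 replicate 2, and that of FMO1 also without FGF2 replicate 3. A second GSTO2 probe was called as well, at -1.08, whereas the other GSTM6 probes, at -0.85 and -0.36, were not. The GSTM6 probe at -0.36 was detected on 0 arrays of either group, so it measures no change. With the replicate number as a block, ALDH1A7 was called too, with a log2 fold change of -1.40 (adjusted p = 0.036 with the block and 0.105 without it).

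**Figure D2:**
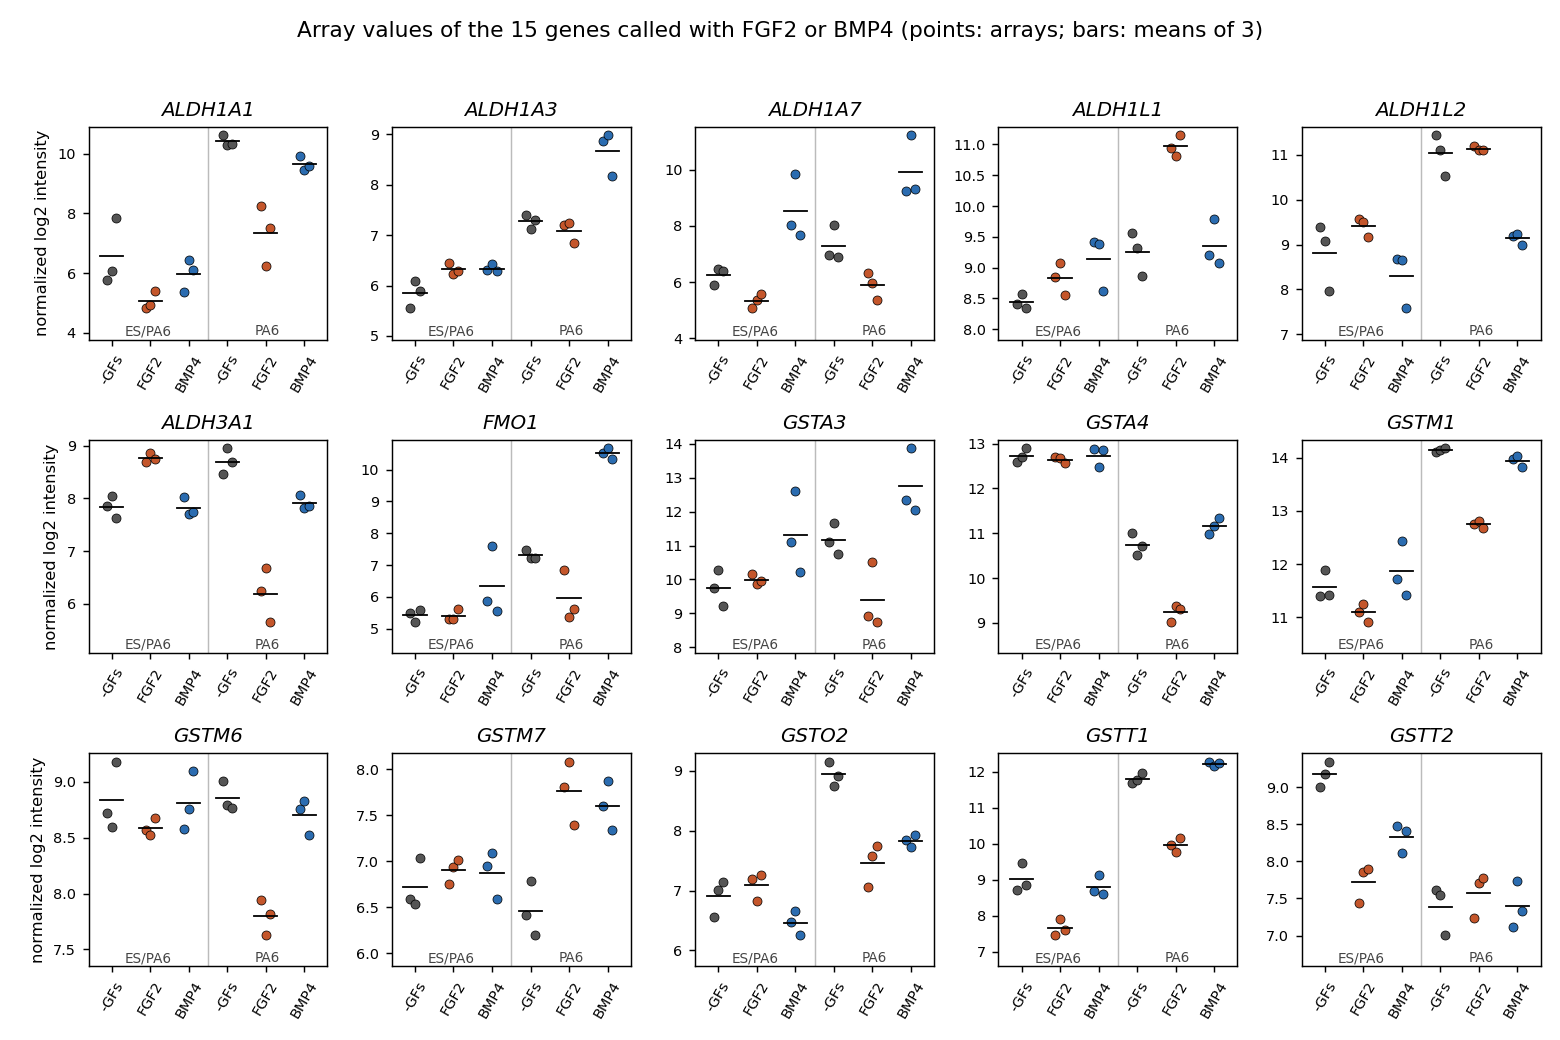
Normalized log2 intensity (y axis) on each of the 18 arrays for the 15 genes called with FGF2 or BMP4 in either culture type, by group (x axis); points are arrays, bars are means of 3, and each panel has its own scale. ALDH3A1 was lowest with FGF2 in PA6 mono-cultures and highest among co-cultures with FGF2, and FMO1 stood at 10.34 to 10.66 with BMP4 in PA6 mono-cultures.

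Adipocyte markers moved in the same cultures. Of 6 tested markers in a list of 8, 4 fell with FGF2 in PA6 mono-cultures (ADIPOQ, CFD, CIDEC and LPL), with a median log2 fold change of -3.70 over the list. The summed linear level of the 6 was 10300 to 13400 without growth factors, 1550 to 1820 with FGF2 and 26600 to 58700 with BMP4. With BMP4 only 1 of the 6 was called, LPL, which rose by 1.26. The highest BMP4 sum was that of replicate 2, beside 26600 and 28200 on replicates 1 and 3. The part of these marker changes in the values of the transferases and dehydrogenases was not tested.

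Upon BMP4 stimulation of PA6 mono-cultures the largest rise was that of FMO1. Here 4 of the 40 genes rose (10%), against 0.839% of all genes, and 2 fell (5%), against 0.572% of all genes. The risers were FMO1, ALDH1A7, ALDH1A3 and GSTM7, and the genes that fell were ALDH1L2 and GSTO2. Of these 6 genes, FMO1, GSTM7 and GSTO2 were also called with FGF2, GSTM7 and GSTO2 in the same direction and FMO1 in the opposite one; both comparisons use the same -GFs arrays.

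FMO1, the FMO of mouse liver and kidney among other tissues, lay at 7.47, 7.23 and 7.21 without growth factors and at 10.52, 10.66 and 10.34 with BMP4. The groups were well apart, and FMO1 rose by 3.20 (SE 0.415, adjusted p = 0.000524). A second FMO1 probe was detected on the 3 BMP4 arrays of the mono-cultures and on 0 others, which was what let it pass the detection filter, so its call adds no support. FMO2 and FMO5 changed by 0.12 and 0.05 and were not called.

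ALDH1A7, a mouse paralog of ALDH1A1, went from 6.95, 8.04 and 6.88 to 9.25, 11.22 and 9.31. Replicate 2 was the highest in both groups, and the rise was 2.63 (SE 0.543, adjusted p = 0.0151). ALDH1A3, a retinaldehyde dehydrogenase like ALDH1A1, was at 7.39, 7.12 and 7.30 without growth factors and at 8.86, 8.98 and 8.17 with BMP4. It rose by 1.40 (SE 0.191, adjusted p = 0.000766), and its second probe, detected on 0 of the 3 -GFs arrays and on 3 of 3 with BMP4, was at least 3.24-fold higher.

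ALDH1L2, the mitochondrial folate enzyme, lay at 11.44, 11.12 and 10.54 without growth factors and at 9.18, 9.24 and 9.0 with BMP4. Its BMP4 arrays were all lower and close together (log2 fold change -1.89, SE 0.332, adjusted p = 0.00546), and a second probe was called at -1.82. GSTM7 went from 6.41, 6.78 and 6.20 to 7.60, 7.87 and 7.34, a rise of 1.14 (SE 0.21, adjusted p = 0.00795) without overlap of the arrays. GSTO2 fell by 1.11 (SE 0.195, adjusted p = 0.00546), and a second GSTO2 probe was called at -1.27. Without background correction neither GSTM7 (0.65) nor GSTO2 (-0.86) was called. With the replicate block GSTA3 was called as well, at 1.57 (adjusted p = 0.0226 with the block and 0.214 without it).

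Set side by side in PA6 mono-cultures, FGF2 and BMP4 left 12 of the 40 genes at different levels (30%), against 5.82% of all genes. With FGF2, 10 genes were lower than with BMP4. The fitted difference was -4.55 on the log2 scale for FMO1 (SE 0.415, adjusted p = 1.66e-06), followed by ALDH1A7 (-4.04), GSTA3 (-3.35), ALDH1A1 (-2.31), GSTT1 (-2.25), GSTA4 (-1.93), ALDH3A1 (-1.72), ALDH1A3 (-1.58), GSTM1 (-1.19) and MGST3 (-1.10). With FGF2, FMO1 and ALDH1A7 were each detected on 1 of 3 arrays, so background limits the size of their differences and their order. ALDH1L2 (2.00) and ALDH1L1 (1.62) were higher with FGF2. For ALDH1L1 the BMP4 arrays, at 9.20, 9.79 and 9.07, overlapped those without growth factors, whereas for ALDH1L2 it was the FGF2 arrays, at 11.20, 11.11 and 11.11, that overlapped them. The FGF2 and BMP4 comparisons share the -GFs arrays. The ALDH3A1 call was lost without background correction (-0.99), and that of MGST3 without FGF2 replicate 1 or BMP4 replicate 2 (as near as -0.88). Of the 6 adipocyte markers 5 were lower with FGF2 than with BMP4.

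In ES/PA6 co-cultures fewer of these genes moved. Upon FGF2 stimulation 3 of 40 fell (7.5%), against 1.2% of all genes, and 0 rose, against 2.14% of all genes, while 10 of the 40 (25%) had an unadjusted p under 0.05, against 17.8% of all genes. The 3 were GSTT1, GSTT2 and ALDH1A1. GSTT1 lay at 8.72, 9.46 and 8.86 without growth factors and at 7.47, 7.90 and 7.61 with FGF2, and fell by 1.36 (SE 0.19, adjusted p = 0.000382). GSTT2, the next theta class gene, went from 9.0, 9.18 and 9.34 to 7.44, 7.85 and 7.89, a fall of 1.45 (SE 0.207, adjusted p = 0.000415). Neither gene had overlapping arrays, and each was called under all 15 alternatives run for it. In the same co-cultures 1 of 8 stromal markers fell with FGF2 (list median -0.41), with a summed level of 35500 to 47200 against 50800 to 59900 without growth factors. Of 7 ES cell markers 2 rose (median 0.45), with sums of 47900 to 57500 against 36400 to 48800. With FGF2 stromal markers also fell in PA6 mono-cultures, where 2 of 8 were called lower (list median -0.53). Their sums there were 81000 to 94900, against 95800 to 105000 without growth factors. The part of the co-culture shifts in the values of the 3 genes was not tested.

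ALDH1A1 was at 5.76, 6.08 and 7.86 in the co-cultures without growth factors and at 4.82, 4.93 and 5.40 with FGF2. It was detected on 2 of the 3 -GFs arrays and on 0 of the 3 FGF2 arrays, so its level with FGF2 is only a bound and it was at least 1.62-fold lower (adjusted p = 0.086). This call was lost under 8 of 14 alternatives, among them leaving out -GFs replicate 2 or 3 or FGF2 replicate 1 or 2, with an adjusted p of up to 0.337. ALDH3A1 did not pass the fold threshold in the co-cultures although its arrays did not overlap, at 7.85, 8.05 and 7.63 without growth factors and 8.69, 8.87 and 8.75 with FGF2 (log2 fold change 0.93, adjusted p = 0.0111).

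BMP4 in the co-cultures left 1 of 40 genes higher (2.5%), against 0.31% of all genes, and 0 lower, against 0.45% of all genes. That gene was ALDH1A7, at 5.91, 6.47 and 6.40 without growth factors and at 8.02, 9.83 and 7.68 with BMP4. The arrays did not overlap, and the rise of 2.25 (SE 0.543) had an adjusted p of 0.069. It was lost under 9 of 14 alternatives, with an adjusted p of up to 0.224, and leaving out any of the 3 -GFs arrays or BMP4 replicate 1 or 2 was enough. GSTA3, at 9.76, 10.27 and 9.21 without growth factors and 11.10, 12.60 and 10.23 with BMP4, was called only with the replicate block (log2 fold change 1.56, adjusted p = 0.0281 with the block and 0.284 without it).

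In these arrays BMP4 replicate 2 had the highest ALDH1A7, GSTA3 and FMO1 (7.61, beside 5.88 and 5.56) of the co-cultures. Its adipocyte markers summed to 28400, beside 9190 and 6440 on BMP4 replicates 1 and 3, 2380 to 4710 without growth factors and 1760 to 2020 with FGF2. ADIPOQ and CFD rose with BMP4 in the co-cultures, and ADIPOQ fell with FGF2. Their part in the co-culture values of ALDH1A7 and GSTA3 was not tested.

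FGF2 and BMP4 co-cultures differed in 3 of the 40 genes (7.5%), against 2.85% of all genes. ALDH1A7 was at least 6.22-fold lower with FGF2 (adjusted p = 0.00245), since none of its FGF2 arrays passed the detection threshold. GSTT1 was lower (-1.15, SE 0.19, adjusted p = 0.00199) and ALDH1L2 higher (1.11, SE 0.332, adjusted p = 0.0699). The ALDH1L2 call was lost under 7 of 15 alternatives, with an adjusted p of up to 0.245, and that of GSTT1 without background correction, with median scaling and without BMP4 replicate 2 (as near as -0.86). GSTA3 was called with the replicate block, at -1.31 (adjusted p = 0.0308, against 0.244 without it).

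Whether the FGF2 change differed between the 2 culture types was tested directly, as the change in ES/PA6 co-cultures minus that in PA6 mono-cultures. Co-culture values hold RNA of both cell types, so an unequal action of FGF2 on the stroma and RNA from ES cells cannot be told apart. The difference was called for 6 of 40 genes (15%), against 7.39% of all genes. It was largest for ALDH3A1, at 3.44 (SE 0.29, adjusted p = 3.07e-06), which changed by 0.93 in the co-cultures and fell by 2.51 in the mono-cultures. GSTO2 (1.68, adjusted p = 0.00108) and GSTA4 (1.43, adjusted p = 0.000671) fell in the mono-cultures and changed by 0.19 and -0.09 in the co-cultures. GSTA4 lay at 12.56 to 12.69 in the FGF2 co-cultures and at 9.03 to 9.37 in the FGF2 mono-cultures.

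ALDH1L1 (-1.34, adjusted p = 0.0179) and GSTM7 (-1.12, adjusted p = 0.0249) rose in the mono-cultures and changed by 0.39 and 0.18 in the co-cultures, whereas GSTT2 (-1.63, adjusted p = 0.0021) fell in the co-cultures and changed by 0.18 in the mono-cultures. The GSTM7 call was lost in 4 of 19 alternatives: without background correction (-0.67), without -GFs replicate 3 of either culture type, and without PA6 FGF2 replicate 2. GSTT1 fell in both culture types, and its difference of 0.48 (SE 0.269, adjusted p = 0.308) was not called. With the replicate block GSTA3 (2.04, adjusted p = 0.0142, against 0.13 without it) and ALDH1A1 (1.55, adjusted p = 0.0622, against 0.184) were called too. ALDH1A1 was detected on 0 of the 3 FGF2 co-culture arrays, so its difference has no measured size. Of the adipocyte markers 3 of 6 also had a called difference, in the positive direction.

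**Figure D3:**
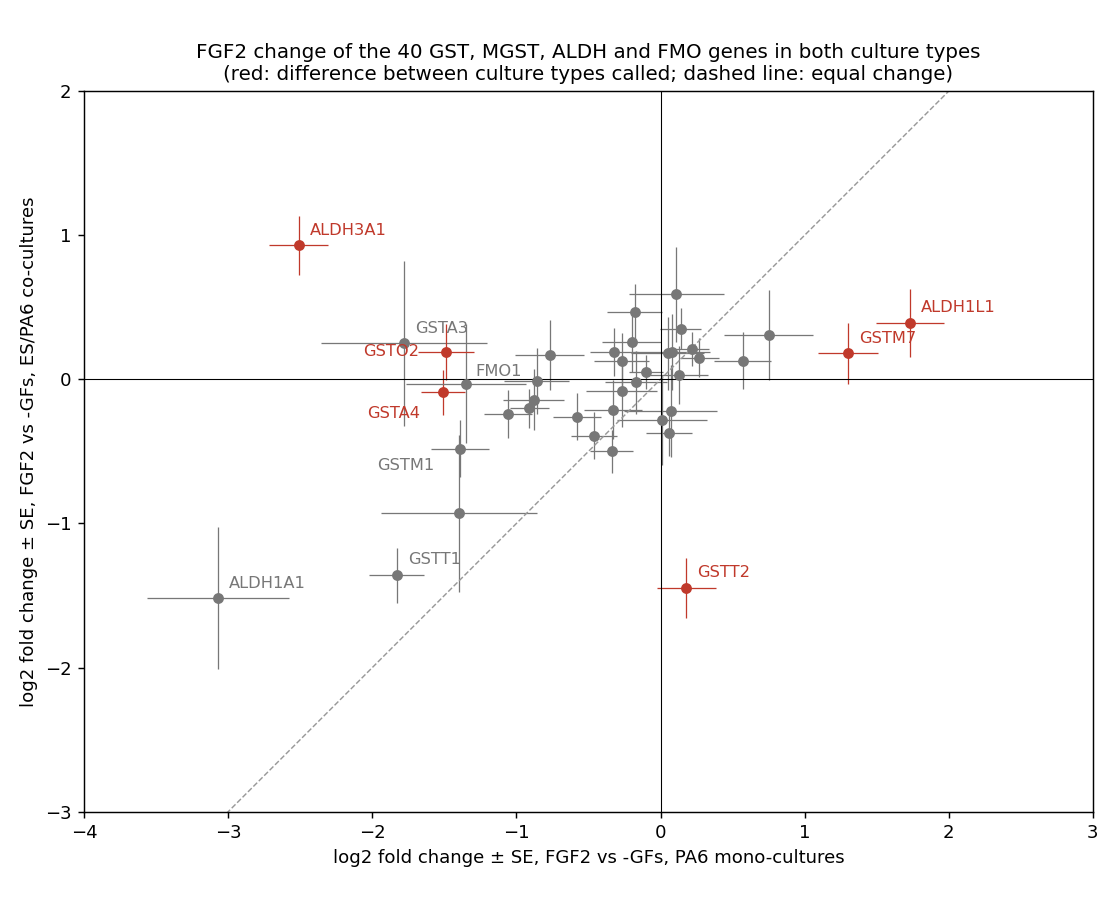
Log2 fold change with FGF2 against -GFs in PA6 mono-cultures (x axis) and in ES/PA6 co-cultures (y axis) for the 40 genes, with standard errors of the limma fit. The 6 genes in red had a called difference between the culture types, and ALDH3A1 lies at -2.51 on the x axis and 0.93 on the y axis, far from the dashed line of equal change.

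For BMP4 the same difference was called for 0 of 40 genes in the limma fit, against 0.559% of all genes, and 9 of the 40 (22.5%) had an unadjusted p under 0.05, against 9.74% of all genes. With the replicate block 2 were called, FMO1 (-2.29, adjusted p = 0.0712, against 0.129 without the block) and ALDH1L2 (1.38, adjusted p = 0.0251, against 0.285). FMO1 was detected on 0 of 3 -GFs and 1 of 3 BMP4 arrays of the co-cultures, so background limits the size of its difference. When every kept probe was tested, the second probes of FMO1 and ALDH1A3 were called, but in 3 and 2 of the 4 groups, respectively, no array detected them, so that their differences have no measured size.

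The widest differences lay between the culture types themselves. In -GFs medium 6 of 40 genes were higher in ES/PA6 co-cultures (15%), against 19.4% of all genes, and 15 were lower (37.5%), against 19.5% of all genes. The median log2 fold change of the 40 genes was -0.76, beside -0.11 over all genes. Only 9 of the 40 genes had a value above 0. All 3 FMOs and all 3 microsomal transferases had a value below 0, of which 2 each were called. The called FMOs, FMO1 and FMO5, passed the detection filter through the mono-cultures. GSTA3 was called lower (-1.43, adjusted p = 0.0368), a call lost without ES/PA6 -GFs replicate 3 or PA6 -GFs replicate 2 (adjusted p up to 0.127).

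GSTP2, a pi class transferase, lay at 13.00, 12.86 and 13.26 in the co-cultures and at 6.38, 6.15 and 6.06 in the mono-cultures. It was detected on 9 of 9 co-culture arrays and 1 of 9 mono-culture arrays, growth factors included. The fitted log2 fold change of 6.84 (SE 0.164, adjusted p = 1.04e-14) is thus taken against a group near background, with 1 of 3 arrays detected. GSTK1, the kappa class enzyme of mitochondria and peroxisomes, was detected on 9 of 9 co-culture and 0 of 9 mono-culture arrays. At 9.07, 9.53 and 10.14 in the co-cultures it was at least 9.69-fold higher (adjusted p = 1.35e-11), and a second probe, also undetected in the mono-cultures, at least 8.30-fold. With growth factors its co-culture means stayed at 9.61 ± 0.199 (FGF2) and 9.69 ± 0.208 (BMP4; SD, n = 3). Both genes passed the detection filter through the co-cultures, so a difference was bound to appear.

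GSTP1, by contrast, lay at 14.05, 14.03 and 13.94 in the co-cultures and at 14.28, 14.31 and 14.40 in the mono-cultures, and was not called (-0.33, adjusted p = 0.0875). Of its other probes 1 changed by -0.36 and 1 was called at -1.21. The GSTP2 probe was thus near background on arrays where GSTP1 was bright. GSTA4 (1.98), GSTT2 (1.78), ALDH5A1 (1.21) and ALDH4A1 (1.08) were higher in the co-cultures as well. ALDH5A1 oxidises succinic semialdehyde and ALDH4A1 acts in proline breakdown, both in mitochondria. The second probes of these ALDH genes, at -0.16 and 0.88, were not called, and with median scaling ALDH4A1 lost its call at 0.86.

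Lower in the co-cultures were ALDH1A1 (5.76, 6.08 and 7.86 against 10.62, 10.30 and 10.31, log2 fold change -3.84) and GSTT1 (8.72, 9.46 and 8.86 against 11.68, 11.77 and 11.95, log2 fold change -2.79). They were followed by GSTM1 (-2.57), ALDH3B1 (-2.35), ALDH1L2 (-2.22), GSTO2 (-2.04) and MGST1 (-1.93), with adjusted p-values of at most 4e-05. FMO5 and FMO1 were detected on 0 of the 3 co-culture arrays and were at least 2.60-fold and 2.68-fold lower. Both passed the detection filter through the mono-cultures, so a difference was bound to appear. GSTT3 (-1.64), MGST2 (-1.63), GSTM2 (-1.53), ALDH1A3 (-1.43) and GSTM5 (-1.38) complete the list. Over the 6 groups, FMO5 means ran from 5.09 ± 0.181 to 5.26 ± 0.235 (SD, n = 3) in the co-cultures and from 6.49 ± 0.584 to 7.31 ± 0.256 in the mono-cultures, and those of GSTM1 from 11.09 ± 0.166 to 11.86 ± 0.524 and from 12.75 ± 0.0683 to 14.14 ± 0.0374. FMO5 was detected on 0 of 9 co-culture arrays, so its co-culture means are background. For GSTM1, each co-culture mean was below each mono-culture mean. Without background correction ALDH1A3 (-0.73) and FMO1 (-0.97) were not called. With the replicate block, here fitted as a correlation within sets, ALDH1A7 was called too (-1.03, adjusted p = 0.0999, against 0.106 without it). The ES and stromal markers moved with culture type as given above, and a share of cells and a level per cell cannot be told apart.

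**Figure D4:**
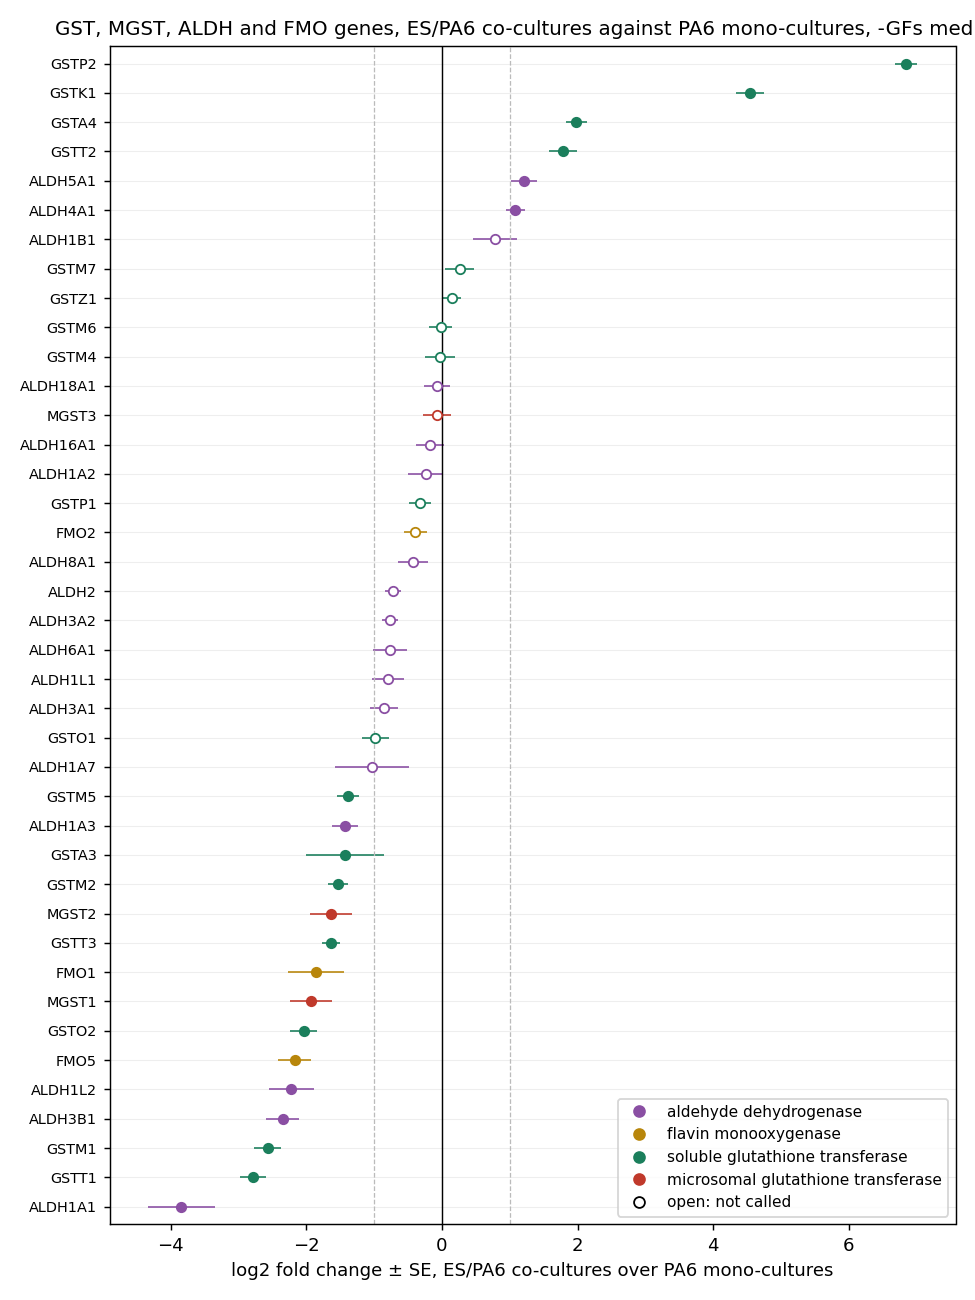
Log2 fold change with its standard error (x axis) of ES/PA6 co-cultures over PA6 mono-cultures in -GFs medium for the 40 genes (y axis, ordered by value), 3 arrays per group. Filled points were called, and GSTP2 at 6.84 and ALDH1A1 at -3.84 are the ends of the range.

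The other 25 genes were called in none of the 4 comparisons with -GFs. Several stayed high in every group: the group means ran from 14.18 ± 0.0575 to 15.11 ± 0.0808 (SD, n = 3) for ALDH2, from 13.55 ± 0.166 to 15.59 ± 0.0829 for GSTM2 and from 13.64 ± 0.349 to 14.39 ± 0.219 for GSTP1. MGST1, which protects membranes from lipid peroxides, ran from 12.35 ± 0.621 to 14.69 ± 0.217, MGST2 from 9.65 ± 0.491 to 12.03 ± 0.076 and MGST3 from 10.02 ± 0.349 to 11.12 ± 0.381. GSTO1 ran from 12.47 ± 0.208 to 13.81 ± 0.0946 and GSTM5 from 11.13 ± 0.157 to 12.91 ± 0.0443. For all of these but MGST3, the lowest mean was that of a co-culture group and the highest that of a mono-culture group.

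GSTZ1, which acts in tyrosine breakdown, kept to 10.97 ± 0.022 to 11.32 ± 0.0862 over the 6 groups, and ALDH18A1, which makes the proline precursor, to 10.23 ± 0.3 to 10.72 ± 0.161. ALDH3A2, which oxidises fatty aldehydes, ran from 11.57 ± 0.113 to 12.59 ± 0.141 and ALDH6A1, of valine breakdown, from 9.94 ± 0.504 to 11.10 ± 0.293. Dim genes were ALDH1A2, the main retinaldehyde dehydrogenase of the early embryo, detected on 5 of 18 arrays with group means of 5.58 ± 0.285 to 6.11 ± 0.478, ALDH1B1 (4.99 ± 0.135 to 6.07 ± 0.891) and FMO2 (5.97 ± 0.13 to 6.50 ± 0.322). For ALDH1A2 and ALDH1B1 no change was detectable at this signal.

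Several of these genes lie next to each other in the genome. Among protein-coding genes of RefSeq (GRCm38.p6), 18 of the 40 form 10 neighbouring pairs. Over the 4 comparisons with -GFs, both genes of a pair were called once, 1 of them 16 times and neither 23 times, and the difference within a pair was not tested. In some of the 16 cases both genes had the same sign with FGF2 in PA6 mono-cultures, as GSTT1 (-1.83) and GSTT3 (-0.91). The pair called together was GSTM6 and GSTM7 on chromosome 3 with FGF2 in PA6 mono-cultures, in opposite directions (-1.06 and 1.30). With BMP4 FMO1 on chromosome 1 changed by 3.20 and FMO2 by 0.12, and with FGF2 ALDH3A1 on chromosome 11 changed by -2.51 and ALDH3A2 by 0.22, all in mono-cultures.

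The sequences before the annotated starts are shown for the neighbours ALDH1A1 and ALDH1A7 and for GSTP1 and GSTP2, close paralogs. The arrays of the ALDH1A pair diverged with BMP4 and those of the GSTP pair between the culture types. The longest run common to both genes of a pair is in capitals. Each is 250 bases, 5′ to 3′, from RefSeq (GRCm38.p6), and for ALDH1A1 the start nearer to ALDH1A7 is used.
ALDH1A1, chr19:20601718-20601967, + strand: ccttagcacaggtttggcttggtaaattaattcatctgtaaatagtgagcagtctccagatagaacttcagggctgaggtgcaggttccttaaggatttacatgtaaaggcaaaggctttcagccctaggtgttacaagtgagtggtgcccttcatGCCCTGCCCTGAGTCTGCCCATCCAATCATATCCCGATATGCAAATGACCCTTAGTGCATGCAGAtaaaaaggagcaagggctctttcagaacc
ALDH1A7, chr19:20727557-20727806, - strand: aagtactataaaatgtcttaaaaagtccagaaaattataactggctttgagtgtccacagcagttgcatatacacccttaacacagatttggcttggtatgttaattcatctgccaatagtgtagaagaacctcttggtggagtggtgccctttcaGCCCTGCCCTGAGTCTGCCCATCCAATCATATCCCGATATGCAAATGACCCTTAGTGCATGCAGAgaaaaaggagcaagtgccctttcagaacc
GSTP1, chr19:4037913-4038162, - strand: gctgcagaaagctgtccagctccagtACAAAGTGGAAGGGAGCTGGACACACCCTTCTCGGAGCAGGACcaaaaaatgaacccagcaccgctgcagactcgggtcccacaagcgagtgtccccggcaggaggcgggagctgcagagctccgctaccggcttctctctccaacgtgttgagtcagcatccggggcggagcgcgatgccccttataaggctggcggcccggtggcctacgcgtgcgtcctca
GSTP2, chr19:4042222-4042471, - strand: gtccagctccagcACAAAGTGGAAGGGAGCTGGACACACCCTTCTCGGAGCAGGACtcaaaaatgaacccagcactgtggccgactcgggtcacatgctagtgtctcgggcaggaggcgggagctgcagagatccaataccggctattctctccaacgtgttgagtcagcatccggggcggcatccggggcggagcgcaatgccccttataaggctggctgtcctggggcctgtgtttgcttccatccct
The ALDH1A pair shares a run of 65 bases that begins 94 bases before both starts, and 65.7% of the columns of a global alignment were identical. The GSTP pair shares a run of 43 bases and 78.1% of columns. ALDH1A7 rose with BMP4 in both culture types while ALDH1A1 had log2 fold changes of -0.60 (ES/PA6) and -0.76 (PA6), and between the culture types GSTP2 was called and GSTP1 missed the fold threshold. With FGF2 in PA6 mono-cultures ALDH1A1 (-3.07, called) and ALDH1A7 (-1.40, called only with the replicate block) had the same sign.

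The antioxidant response element core, TGACNNNGC on either strand, was searched from 250 bases before to 50 after each annotated start, where RefSeq gave promoters for 33 of the 40 genes. It was present in 5 of them (15.2%), beside 14% of 27025 genes. The E-box CACGTG was present in 2 (6.06%), beside 8.09%. Of the 15 genes called with a growth factor, 9 had a promoter entry and 2 of those the antioxidant core, GSTA3 and GSTM7. The GSTA3 match begins 121 bases before the start and is in capitals here, since GSTA3 was the called gene with a match and a single annotated start.
GSTA3, chr1:21240335-21240584, + strand: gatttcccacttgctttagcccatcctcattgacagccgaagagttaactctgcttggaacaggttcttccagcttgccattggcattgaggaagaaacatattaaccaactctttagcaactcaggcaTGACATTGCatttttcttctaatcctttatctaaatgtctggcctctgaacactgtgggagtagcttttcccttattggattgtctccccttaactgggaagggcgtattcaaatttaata
In GSTM7 the match begins 129 bases before 1 of its annotated starts, at a place that lies after the other start. GSTA3 fell and GSTM7 rose with FGF2 in PA6 mono-cultures. The other genes with a match, ALDH1A2, GSTM5 and MGST1, were not called with either growth factor. A motif match describes letters only. The AP-1 motif TGANTCA, searched after these sequences had been seen, was present in 5 of the 33 genes (15.2%), GSTP1 and GSTP2 among them, beside 8.97% of all genes.

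Among other genes of glutathione metabolism and the NRF2 response, calls with a growth factor were limited to FGF2 in PA6 mono-cultures. In the list of 30 such genes 26 were tested, and in PA6 mono-cultures with FGF2 GGT5 (1.30) and SOD2 (1.24) rose and CAT, which encodes catalase, fell by 1.19, with a list median of 0.02. These are 7.69% higher and 3.85% lower, against 2.71% and 2.56% of all genes. With FGF2 or BMP4 in the co-cultures and with BMP4 in the mono-cultures 0 of the 26 were called. Between culture types in -GFs medium 4 were higher in the co-cultures (15.4%, against 19.4% of all genes) and 3 lower (11.5%, against 19.5%). Among the higher ones, GPX3, a secreted glutathione peroxidase undetected in the mono-cultures, was at least 21.2-fold higher and GCLM, a subunit of the enzyme that makes the glutathione precursor, differed by 1.59. The other 3 called, GPX7, GPX8 and KEAP1, were lower, with log2 fold changes of -1.21, -1.31 and -1.02.

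Of 14 tested retinoid genes in a list of 19, the alcohol dehydrogenases ADH1 (-1.95) and ADH7 (-1.52) fell with FGF2 in the co-cultures (14.3%, against 1.2% of all genes). The retinoic acid binding proteins CRABP1 (-3.21) and CRABP2 (-2.08) fell with BMP4 there (14.3%, against 0.45%). In PA6 mono-cultures with FGF2 the retinol dehydrogenase RDH10 (at least 2.47-fold, undetected without FGF2) and the receptor gene RARB (1.20) rose (14.3%, against 2.71%) and ADH7 fell by 1.03 (7.14%, against 2.56%), and with BMP4 0 of 14 were called. Of 24 tested genes of other drug metabolism in a list of 28, SULT1A1, a sulfotransferase, fell with FGF2 in both culture types (by 2.43 and 2.48), as GSTT1 did. EPHX2, the soluble epoxide hydrolase, fell by 2.01 and SULT5A1 at least 1.21-fold with FGF2 in the mono-cultures, while CYP2F2 (3.32) and the exporter gene ABCC3 (3.61) rose. With SULT1A1 these are 12.5% lower and 8.33% higher, against 2.56% and 2.71% of all genes. CYP2S1 rose by 1.19 with FGF2 in the co-cultures (4.17%, against 2.14%; SULT1A1 as 4.17% lower, against 1.2%), and with BMP4 POR, which encodes the electron donor of P450 enzymes, rose by 1.27 in the mono-cultures (4.17%, against 0.839%). Between culture types 4 of the 24 were higher (16.7%, against 19.4% of all genes) and 13 lower (54.2%, against 19.5%) in the co-cultures, with a median of -1.09.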

How the data were processed

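The 18 samples were day-3 cultures in 6 groups of 3, hybridised to Illumina MouseWG-6 v2.0 bead arrays (1 colour). The authors read the arrays with GenomeStudio 2011.01 (per the labels' processing notes), and the deposited values are non-normalized probe intensities on a linear scale (55.5 to 72879), each with a deposited detection p-value. Of the table, 45281 probes were used and 5 stray lines with shifted cells were left out. The 40 genes and the gene lists were chosen with earlier results of these data known, so the counts of the 40 genes and of the pathway lists are given beside the shares of all genes.

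Intensities were background corrected, quantile normalized and put on a log2 scale with limma 3.58.1 (neqc, offset 16) in R 4.3.3, where the study's methods name a cubic spline. The offset understates changes of dim genes. Probes detected (p under 0.05) on at least 3 arrays were kept (22987), and the probe with the largest mean stood for its gene, as in the study's methods, which also give the thresholds. A limma fit of 6 group means over 16446 genes gave all comparisons, with Benjamini-Hochberg adjustment. It was tested on simulated data with independent noise on each array, so that test does not cover deviations shared by same-numbered arrays. A group with 0 arrays above detection has only a bound: its fold is "at least" the brighter mean over the dim arrays' lowest detected values, or the probe's own where higher. With 3 arrays against 3, a permutation test cannot go below p = 0.1, so precision is limited by the 3 arrays per group. Probe sequences were not used here, so hybridisation to transcripts of paralogs was not tested.

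By rule, array values are printed for at most the 5 largest called changes per comparison with -GFs, fold change, SE and adjusted p for the other called genes there, and group means for 26 chosen genes, of which ALDH7A1 was not detected. Symbols are those of the table, and all 40 matched RefSeq (GRCm38.p6). Promoter entries were not found for ALDH1A3, ALDH1L2, ALDH2, ALDH3A1, FMO1, GSTA4 and GSTT2. Promoter pairs were aligned globally (match 1, mismatch -1, gap opening -3, extension -0.5).

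Same-numbered arrays deviated together in the co-cultures (r = 0.325 to 0.521 in all 9 pairs) and less in the mono-cultures (0.0628 to 0.164). The labels also describe each replicate as a set of wells. The pairing therefore rests on both, and values with the replicate number as a block are given where they change a call. The block was a fixed term within each culture type. For the comparison between culture types in -GFs medium it was instead fitted as a correlation within sets. The labels give 10 ng/ml BMP4, and the study's methods a lower dose for cultures on slides.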

Additional observations from a re-analysis of the deposited data

Results flagged for a closer look

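The change with FGF2 differed between the culture types, by the test of the difference itself, in 6 genes. Since co-culture values hold RNA of both cell types, the cell type behind such a difference cannot be told. For ALDH3A1 the FGF2 change in ES/PA6 co-cultures minus that in PA6 mono-cultures was 3.44 on the log2 scale (SE 0.29), and it was called under all 19 alternatives run for it, between 2.30 and 3.68. For GSTO2 it was 1.68, for GSTA4 1.43, for GSTT2 -1.63 and for ALDH1L1 -1.34, each called under all 20 alternatives run. For GSTM7 it was -1.12, and the call was lost in 4 of 19. Groups of 3 arrays were not searched for single arrays that stand apart.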

How the results depend on the processing

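Of 63 calls of single genes, 46 were kept under every alternative run, and 17 were lost under at least 1. Of the 930 alternatives computed for them, 877 gave the same call, 53 lost it and 0 changed direction. For a single gene, the alternative that tested every kept probe read the gene's same probe again. A disagreeing second probe thus could not lose a call there. GSTM1 with FGF2 in PA6 mono-cultures and ALDH5A1 between the culture types are such cases. The count of genes called with BMP4 in ES/PA6 co-cultures, 1, became 0 without background correction, without the detection filter, with detection on all 18 arrays, with the arrays of the co-cultures alone and at an adjusted p under 0.05, was 2 with the replicate block, and ran from 0 to 1 when single arrays were left out. With detection on all 18 arrays, where 27 of the 40 genes are tested, the count in PA6 mono-cultures was 7 with FGF2, 2 with BMP4 and 7 between FGF2 and BMP4. Between FGF2 and BMP4 co-cultures it was 1 without background correction and 2 to 5 when single arrays were left out, the 5 without ES/PA6 BMP4 replicate 3. For the difference of the BMP4 changes between culture types, 0 in the limma fit, it was 1 without background correction, 1 with median scaling, 2 with the replicate block, 2 with every kept probe tested and 0 to 1 with single arrays left out, the 1 without ES/PA6 BMP4 replicate 2 or PA6 BMP4 replicate 3. The cause of these shifts was not tested. Some of the alternatives hold fewer genes or arrays. The replicate block changed the calls named in the text and no other of these genes. Genes near background have compressed changes, and 13 of the 40 were below detection on at least 1 array.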
